A study of Mus musculus with 2 samples.

Results

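The Cxcl12 chemokine axis was examined in single nuclei of the neonatal mouse cerebellum through 3 genes, matched by symbol in the feature list: the ligand Cxcl12, its signalling receptor Cxcr4 and the atypical receptor Ackr3. These were 3 of 32285 genes in the matrices, each symbol matched 1 row, and each had unique molecular identifiers (UMIs, which mark single counted transcripts) in both libraries. Cxcl12 is a secreted chemokine that signals through the G protein-coupled receptor Cxcr4. Its best known source at the cerebellar surface is the meninges, and this signal is known to hold granule neuron progenitors (GNPs) in the external granule layer until they leave the cell cycle and migrate inwards past the Bergmann glia. Ackr3, also called Cxcr7, binds the same ligand, couples to arrestins rather than G proteins and can remove the ligand from the surroundings.

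Cerebella were taken at postnatal day 1 (P1). The control library came from Cre-negative littermates with the genotype Tox3f/f in the labels, although its library name also allows Tox3f/+. The other library came from Nestin-cre;Tox3f/f mice, labelled conditional knockout (cKO). Nestin-cre recombines floxed alleles in neural precursors, and their neuronal and glial progeny inherit the change. Control animals carried floxed alleles without Cre. Each library was made from 12 pooled cerebella, with no replicate library, so all comparisons below give both values and counting intervals and none was tested. An interval is an exact 95% interval for counting error only and does not cover the spread between animals, dissections or libraries.

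Filtering left 4667 nuclei in control and 6555 in the cKO-labelled library, with medians of 3978 and 4025 UMIs, and the libraries shared 9 barcodes. Levels are given as CPM, the UMIs of a gene per 1000000 UMIs of the same nuclei. Tox3, the deleted gene, was not lower in the cKO-labelled library: it had 118 CPM there and 104 CPM in control. Which part of the gene these 3′ counts come from was not determined, so they do not check the deletion. Atoh1, the defining factor of GNPs, had 42 UMIs in control and 3 in the other library. For each comparison, control is given first. The nuclei formed 25 clusters, of which 17 were named after 9 classes from marker genes, with the ending "-like". GNP-like nuclei (2 clusters) and granule neuron-like (GN-like) nuclei (3 clusters) are together called the granule lineage. The GNP-like class made up 11% and 1.75% of nuclei, and Bergmann glia-like nuclei made up 5.21% and 8.71%. Clusters 1 and 5 stayed unnamed for low depth, with 21.7% of nuclei in control and 10.7% in the other library. Cluster 1 held 986 and 82 nuclei and cluster 5 held 28 and 620, so each came almost wholly from 1 library, and their values stand beside the results that follow. Their nuclei had medians of 619 and 576 UMIs.

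On GRCm38, Cxcl12 lies at chr6:117168535-117181367 on the plus strand, Cxcr4 at chr1:128588199-128592293 on the minus strand and Ackr3 at chr1:90203980-90216751 on the plus strand. GENCODE lists all 3 as protein-coding and no other annotated gene overlaps them on either strand, so their counts cannot be split with an antisense or overlapping gene. Exons cover 63.7% of Cxcl12, 44.2% of Cxcr4 and 26.2% of Ackr3, and nuclear RNA can be counted from introns too, so levels are compared below between cells for 1 gene and not between genes.

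The promoters of the 3 genes are shown because the study concerns Atoh1, a basic helix-loop-helix factor that binds E-boxes (CANNTG), and because Cxcr4 and Cxcl12 were both lower in the granule lineage of the cKO-labelled library. Each sequence runs 5′ to 3′ along the gene from 250 bases before to 50 after the start site listed by RefSeq on GRCm38.p6, and capitals mark CANNTG or TATAAA on either strand. The windows are chr6:117168285-117168584 on the plus strand for Cxcl12, chr1:128592250-128592549 on the minus strand for Cxcr4 and chr1:90203730-90204029 on the plus strand for Ackr3.
Cxcl12: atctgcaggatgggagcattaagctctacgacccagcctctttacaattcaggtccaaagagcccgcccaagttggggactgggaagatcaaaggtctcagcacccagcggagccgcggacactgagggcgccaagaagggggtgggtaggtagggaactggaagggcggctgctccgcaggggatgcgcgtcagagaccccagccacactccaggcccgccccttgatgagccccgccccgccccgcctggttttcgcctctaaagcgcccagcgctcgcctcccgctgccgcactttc
Cxcr4: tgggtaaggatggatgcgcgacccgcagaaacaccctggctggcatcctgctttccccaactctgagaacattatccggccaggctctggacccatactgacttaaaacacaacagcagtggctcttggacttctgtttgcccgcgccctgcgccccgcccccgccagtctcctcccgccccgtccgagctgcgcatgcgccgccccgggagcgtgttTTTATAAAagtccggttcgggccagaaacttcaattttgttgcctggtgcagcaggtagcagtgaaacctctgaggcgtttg
Ackr3: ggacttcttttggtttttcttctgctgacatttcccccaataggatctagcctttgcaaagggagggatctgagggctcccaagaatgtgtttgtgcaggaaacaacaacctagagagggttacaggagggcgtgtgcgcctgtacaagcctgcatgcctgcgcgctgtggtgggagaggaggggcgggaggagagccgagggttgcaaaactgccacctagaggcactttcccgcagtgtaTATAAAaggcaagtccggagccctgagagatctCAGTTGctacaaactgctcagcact
CANNTG, its own reverse complement as a pattern, was present in 72.3% of 32851 promoter windows of the same length. The windows of Cxcl12 and Cxcr4 held 0 matches and that of Ackr3 held 1. The narrower E-boxes CAGCTG (16.3% of windows) and CATCTG (17.2%) and the GLI-type site TGGGTGGTC (0.253%), searched on both strands, were in none of the 3 windows. TATAAA, found on either strand in 13.6% of windows, occurred in Cxcr4, where the TTTATAAA stretch holds overlapping matches on both strands, and in Ackr3, but not in Cxcl12. The Cxcl12 and Cxcr4 windows each held 20 CG dinucleotides and the Ackr3 window 8, against a median of 7 over all windows. These matches describe letters in a short window and say nothing of enhancers elsewhere.

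Within control, the ligand and its receptor lay in different classes of the granule lineage, and the atypical receptor lay mostly outside it. GN-like nuclei held 69.2% of all Cxcl12 UMIs of the library. Cxcr4 UMIs were divided mainly between GNP-like nuclei, with 44.5%, and Bergmann glia-like nuclei, with 28.6%. Ackr3 UMIs were 79.4% in Bergmann glia-like nuclei. In the cKO-labelled library the share of Cxcr4 UMIs in GNP-like nuclei was 3.91% and that in Bergmann glia-like nuclei 69.9%, while GN-like nuclei still held 67.1% of Cxcl12 UMIs and Bergmann glia-like nuclei 79.1% of Ackr3 UMIs.

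**Figure D1:**
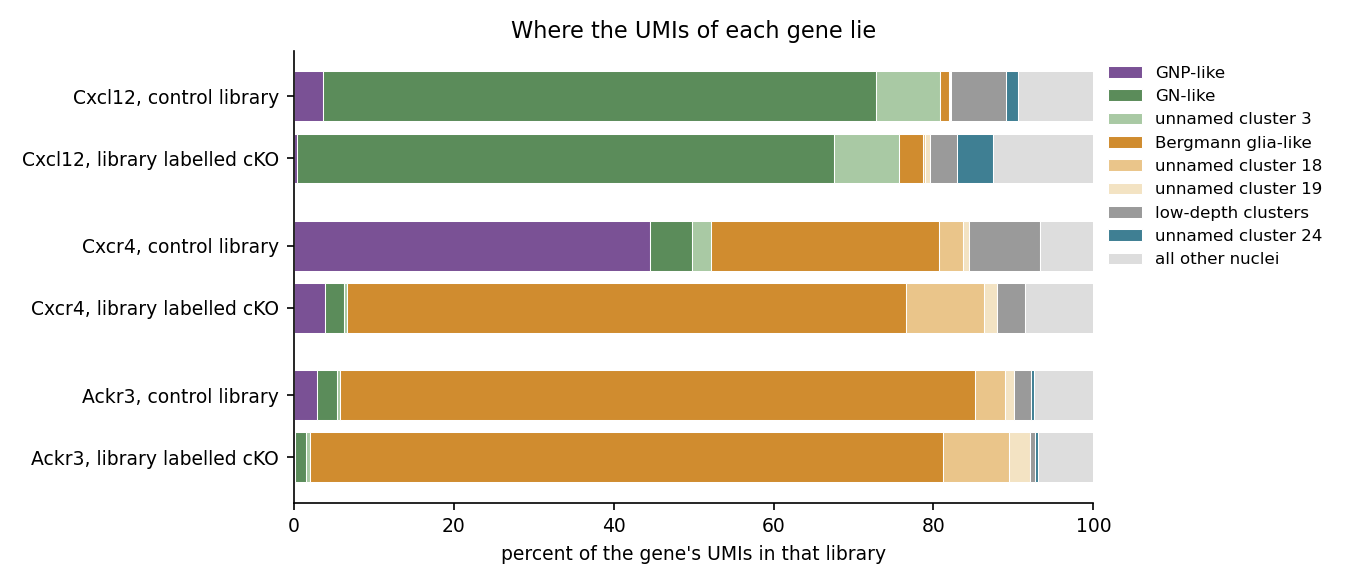
Horizontal bars divide the UMIs of each gene in each library (x axis, percent) among classes and clusters of nuclei, with all remaining nuclei in light grey. The GNP-like part of Cxcr4 shrank from 44.5% in control to 3.91% in the cKO-labelled library, while Ackr3 lay mostly in Bergmann glia-like nuclei in both.

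The ligand is described first. In control, GN-like nuclei had 479 UMIs in 1156 nuclei, 81.4 CPM (95% interval 74.3 to 89.1). GNP-like nuclei of the same library had 12.2 CPM (25 UMIs), and the interval of GN-like nuclei lay above theirs. Cxcl12 was low in 6 other classes of control: 7.38 CPM (8 UMIs) in Bergmann glia-like, 8.15 CPM (24 UMIs) in Purkinje cell-like, 7.72 CPM (22 UMIs) in GABAergic interneuron-like and 2.23 CPM (2 UMIs) in glutamatergic cerebellar nuclei-like (CN-like) nuclei. Oligodendrocyte lineage-like nuclei had 0 UMIs in 76 control nuclei, which allows up to 8.50 CPM at 3 counts, and microglia-like nuclei had 11.6 CPM (2 UMIs). The intervals of these 6 classes overlapped. The low-depth clusters had 68.1 CPM (47 UMIs), near the GN-like level.

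Cxcl12 was detected in 30.1% (27.5 to 32.8) of control GN-like nuclei, at a median of 4668.5 UMIs per nucleus. The share was 3.77% (0.460 to 13) in microglia-like nuclei, which should lack the transcript, at a median of 2923 UMIs. After each nucleus was thinned to 1000 UMIs, which left out 7 GN-like and 1 microglia-like nuclei, the shares were 8.96% and 0% (0 of 52 nuclei, which allows up to 5.77%). Most positive nuclei carried a single Cxcl12 UMI: of 348 positive GN-like nuclei, 101 had at least 2 and the highest had 5.

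A small cluster carried Cxcl12 at a higher level than the GN-like class as a whole. Cluster 24 held 9 nuclei of control and 14 of the other library, was led by Col3a1, Slc6a13, Igf2 and Dcn, and detected 9 of 10 meningeal fibroblast markers in at least 10% of its nuclei. It also detected 7 of 8 mural and 7 of 9 endothelial markers, so it stayed unnamed. Its Cxcl12 level was 304 CPM (152 to 543) from 11 UMIs in control and 304 CPM (191 to 460.4) from 22 UMIs in the cKO-labelled library, with a ratio of 1.00 (0.466 to 2.29). In control, where 4 of its nuclei had a Cxcl12 UMI, the interval of its level overlapped that of GN-like cluster 4, at 148 CPM (129 to 169.6). In the cKO-labelled library it lay above that of cluster 4, at 87.8 CPM (73.2 to 104). Among the nuclei of cluster 24, 17 passed a meningeal fibroblast gate on single nuclei. Of these, 11 had a Cxcl12 UMI, at 356 CPM over both libraries. Cxcr4 had 0 UMIs in the cluster in both libraries, which allows up to 82.8 and 41.5 CPM, and Ackr3 had 1 and 2 UMIs. The number of such nuclei is too small for its share to be compared.

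**Figure D2:**
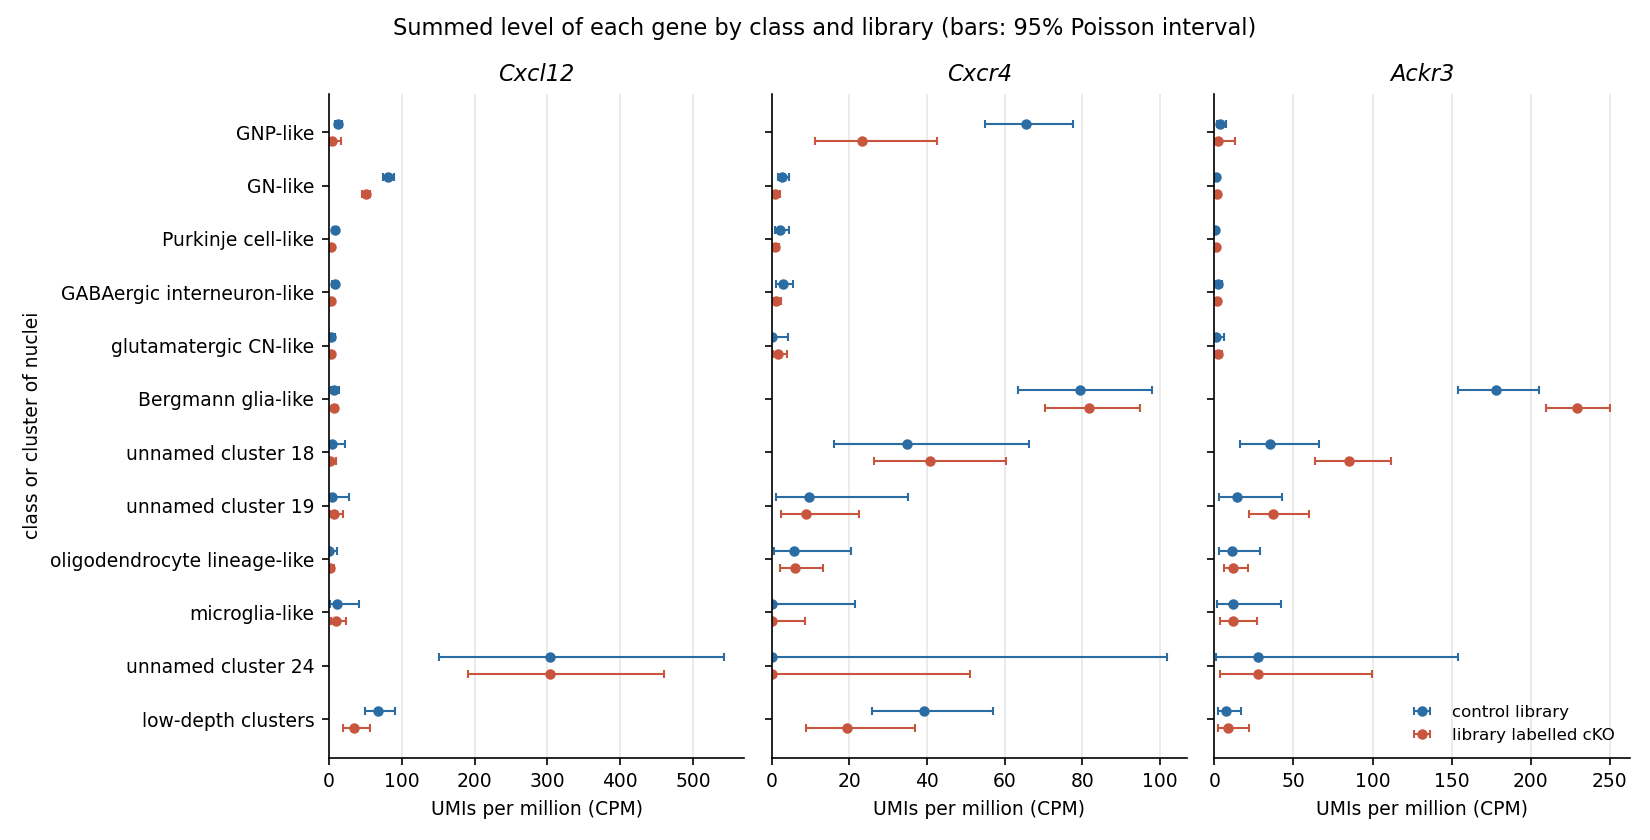
Points give the summed level of Cxcl12, Cxcr4 and Ackr3 (3 panels, x axis in CPM, linear and with its own range in each panel) for the classes and clusters described in the text (y axis) in the control library (blue) and the cKO-labelled library (red), and bars are 95% Poisson intervals. Cxcl12 stood out in GN-like nuclei and cluster 24, Cxcr4 in GNP-like and Bergmann glia-like nuclei and Ackr3 in Bergmann glia-like nuclei, with GNP-like Cxcr4 at 65.4 and 23.2 CPM and Bergmann glia-like Cxcr4 at 79.3 and 81.8 CPM.

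The receptor was read in progenitors and glia. In control, GNP-like nuclei had 134 UMIs in 514 nuclei, 65.4 CPM (95% interval 54.8 to 77.5), and Bergmann glia-like nuclei, the radial glia of the cerebellar cortex, had 86 UMIs in 243 nuclei, 79.3 CPM (95% interval 63.4 to 97.9). These intervals overlapped, so the order of the highest pair of classes is not resolved by counting. Cluster 18, whose leading genes included Glis3, Cyp26b1 and Plpp3 and which stayed unnamed, followed with 34.9 CPM (15.9 to 66.2) from 9 UMIs. Cluster 19, which detected 7 of 8 astrocyte markers such as Slc6a11 and stayed unnamed, had 9.73 CPM (2 UMIs), and oligodendrocyte lineage-like nuclei had 5.67 CPM (2 UMIs). GN-like nuclei had 2.72 CPM (16 UMIs), close to Purkinje cell-like nuclei at 2.04 CPM (6 UMIs) and GABAergic interneuron-like nuclei at 2.81 CPM (8 UMIs). CN-like and microglia-like nuclei had 0 in 76 and 53 nuclei, which allows up to 3.35 and 17.4 CPM. The low-depth clusters had 39.1 CPM (27 UMIs).

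Cxcr4 was detected in 21.0% (17.6 to 24.8) of control GNP-like nuclei and 27.6% (22.1 to 33.6) of Bergmann glia-like nuclei, at medians of 3715.5 and 4307 UMIs. The background share, in Purkinje cell-like nuclei with a median of 9282.5 UMIs, was 2.05% (0.758 to 4.42). Thinned to 1000 UMIs, the shares were 6.23%, 6.58% and 0% (0 of 292 nuclei, which allows up to 1.03%). The share in all GN-like nuclei was 1.38% (0.793 to 2.24) at a median of 4668.5 UMIs, but 9 of their 16 UMIs lay in cluster 8, at 10.9 CPM (4.97 to 20.6) against 2.04 CPM (0.748 to 4.44) in Purkinje cell-like nuclei.

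Ackr3 was the member most restricted to glia. In control, Bergmann glia-like nuclei had 193 UMIs in 243 nuclei, 178 CPM (95% interval 154 to 205). Cluster 18 had 34.9 CPM (9 UMIs), cluster 19 14.6 CPM (3 UMIs), oligodendrocyte lineage-like nuclei 11.3 CPM (4 UMIs) and microglia-like nuclei 11.6 CPM (2 UMIs), and the intervals of these 4 overlapped. Neurons and their progenitors were lower in level, with intervals that in part overlapped these: 3.42 CPM (7 UMIs) in GNP-like, 1.02 CPM (6 UMIs) in GN-like, 0.340 CPM (1 UMI) in Purkinje cell-like, 2.46 CPM (7 UMIs) in GABAergic interneuron-like and 1.12 CPM (1 UMI) in CN-like nuclei. Ackr3 was detected in 49.8% (43.3 to 56.3) of control Bergmann glia-like nuclei and in 3.77% (0.460 to 13) of microglia-like nuclei, and thinned to 1000 UMIs in 16% and 1.92%. Of 121 positive Bergmann glia-like nuclei, 45 had at least 2 Ackr3 UMIs.

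The granule lineage was then followed cluster by cluster. The clusters were ordered here by the dividing marker Mki67 (590.4 CPM in cluster 13 and 77.0 in cluster 16), the Shh pathway factor Gli2 (679 and 620.2 CPM, against 142 in cluster 8), the early postmitotic adhesion molecule Cntn2, highest in cluster 8 at 387 CPM, and Svep1, highest in cluster 0 at 280.1 CPM. This gives the order 13, 16, 8, 4 and 0, over both libraries. The place of cluster 0 after cluster 4 is less sure. Later granule neuron markers, Svep1 and Reln among them, summed to 4488, 6037 and 4280 CPM in clusters 8, 4 and 0. Early postmitotic markers, Cntn2 among them, summed to 1914, 1880 and 1138 CPM. The lists differ on the order of clusters 4 and 0, which is not settled. In control, Cxcr4 was 62.9 CPM (49.6 to 78.6) in cluster 13, 69.1 CPM (52.3 to 89.5) in cluster 16, 10.9 CPM (4.97 to 20.6) in cluster 8, 2.75 CPM (0.749 to 7.04) in cluster 4 and 0.833 CPM (0.172 to 2.44) in cluster 0. The intervals of the 2 GNP-like clusters overlapped, and the step down lay between them and the Cntn2-high cluster.

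Cxcl12 went the other way in control. It was 11.4 CPM (6.25 to 19.2) in cluster 13, 13.3 CPM (6.66 to 23.9) in cluster 16, 31.4 CPM (20.5 to 46.0) in cluster 8, 148 CPM (129 to 169.6) in cluster 4 and 65.8 CPM (57.7 to 74.8) in cluster 0. The peak lay in cluster 4, led by Cadps2 and Reln, the secreted glycoprotein reelin, and its interval was above that of cluster 0. Cluster 3, which held 9 of 10 granule neuron markers but had leading genes of another class and stayed unnamed, had 34.1 CPM (25.7 to 44.3). Within cluster 4, 42.4% (37.0 to 48.0) of control nuclei had a Cxcl12 UMI.

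**Figure D3:**
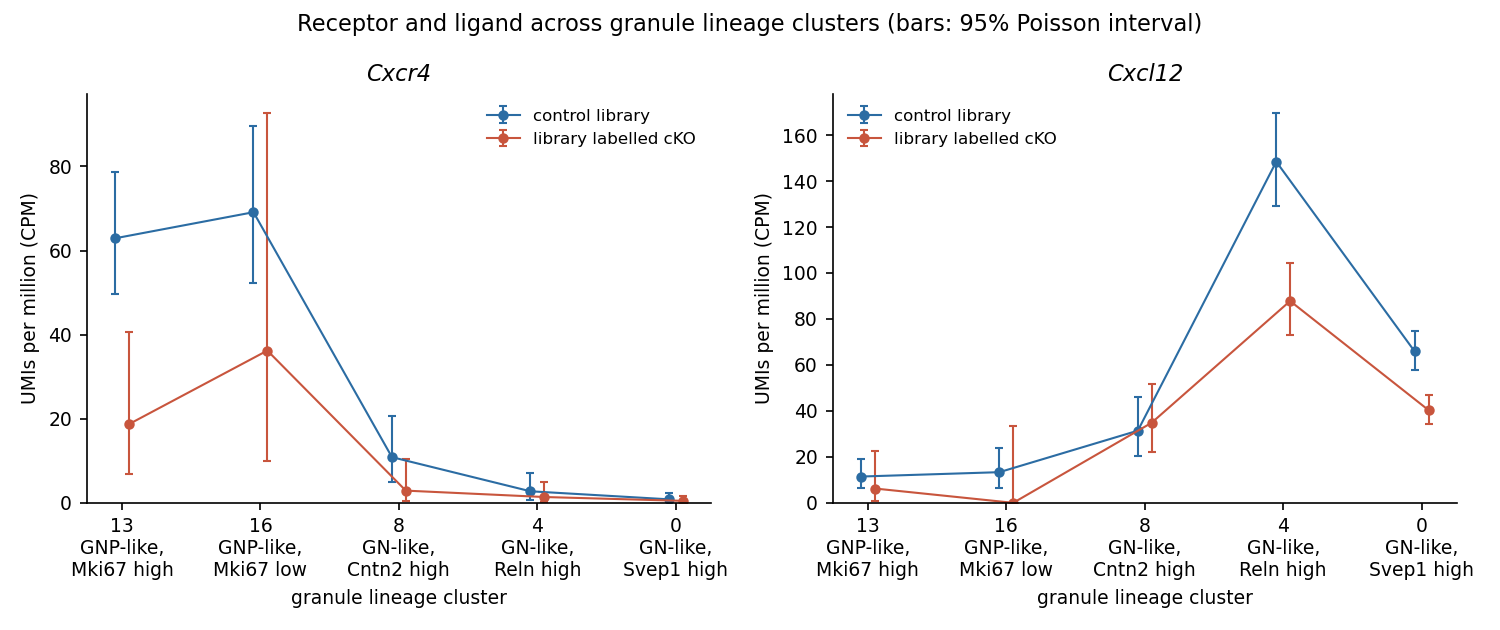
Points give Cxcr4 (left) and Cxcl12 (right) in CPM (y axis, linear, from 0) for 5 granule lineage clusters in the order described in the text (x axis), in the control library (blue) and the cKO-labelled library (red), with 95% Poisson intervals, and the joining lines are only guides. Cxcr4 was high in clusters 13 and 16 of control and Cxcl12 in clusters 4 and 0, and the points of the cKO-labelled library were lower in clusters 13 and 16 for Cxcr4 and in 4 and 0 for Cxcl12, with overlapping intervals in cluster 16.

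Cxcr4 was lower in the GNP-like nuclei of the cKO-labelled library. It had 134 UMIs in 514 nuclei, 65.4 CPM (95% interval 54.8 to 77.5) in control and 10 UMIs in 115 nuclei, 23.2 CPM (95% interval 11.1 to 42.6) in the cKO-labelled library, with a ratio of 0.354 (0.166 to 0.672). The background for this comparison is wide: of all genes with 50 or more UMIs in the class, 16.2% were at least 1.5-fold lower and 9.25% at least 1.5-fold higher, and 2.68% of those compared had a lower ratio than Cxcr4. Cxcl12 and Ackr3 were under 50 UMIs in these nuclei. By cluster, the Cxcr4 ratio was 0.297 (0.106 to 0.677) in cluster 13, from 77 and 6 UMIs, and 0.524 (0.138 to 1.42) in cluster 16, from 57 and 4 UMIs, where the interval holds 1. The share of GNP-like nuclei with a Cxcr4 UMI was 21.0% (17.6 to 24.8) in control and 7.83% (3.64 to 14.3) in the cKO-labelled library, and 6.23% and 1.74% when thinned.

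Nuclei with Mki67, the proliferation marker, were looked at apart within the GNP-like class. In control, Cxcr4 was 55.5 CPM (42.9 to 70.6) in 261 nuclei with an Mki67 UMI and 79.2 CPM (61.5 to 100.4) in 253 without. In the cKO-labelled library the counts were 2 Cxcr4 UMIs in 67 nuclei with Mki67, 7.06 CPM (0.854 to 25.5), and 8 in 48 without, 54.1 CPM (23.4 to 107). The interval of nuclei with Mki67 lay below that of control, and that of nuclei without Mki67 overlapped it. Whether the libraries differ more in dividing nuclei was not tested.

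Other marker genes moved in the same nuclei. The summed level of the 10 granule neuron markers in GNP-like nuclei was 5534 CPM in control and 7842 CPM in the cKO-labelled library, with 8 of 10 higher. The 10 GNP markers summed to 2788 and 2611 CPM, with 5 lower and 5 higher, and Atoh1 and Fgfr4 had 0 UMIs in the cKO-labelled library. The 8 Bergmann glia markers summed to 469 and 640.0 CPM, with 5 higher and Fam107a at 0 in both. The 8 parenchymal astrocyte markers summed to 327 and 577 CPM, with 3 higher, 5 lower and Gfap, Agt and Itih3 at 0 in the cKO-labelled library. The 8 GABAergic interneuron markers summed to 54.7 and 109 CPM, with 6 higher and Lhx5 at 0 in the cKO-labelled library, and the 8 GABAergic progenitor markers to 25.9 and 9.27 CPM, with 6 lower and 5 at 0 in the cKO-labelled library, among them Ptf1a. The low-depth clusters had a Cxcr4 level of 39.1 CPM (27 UMIs) and 19.4 CPM (9 UMIs), a ratio of 0.496 (0.205 to 1.09). The part of the marker shifts and of free RNA in the Cxcr4 ratio was not tested.

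Over the whole granule lineage, Cxcr4 was 150 UMIs in 1670 nuclei, 18.9 CPM (95% interval 16 to 22.2) in control and 16 UMIs in 1595 nuclei, 2.35 CPM (95% interval 1.34 to 3.82) in the cKO-labelled library. This was 8.05-fold lower (interval 4.8 to 14.4), over 514 and 115 GNP-like nuclei, so it combines their number with their level. In GN-like nuclei, 16 and 6 Cxcr4 UMIs gave a ratio of 0.346 (0.111 to 0.931). Of these, 9 and 2 UMIs lay in cluster 8, with a ratio of 0.267 (0.0281 to 1.29). In unnamed cluster 3 it was 0.123 (0.00272 to 0.955), from 7 and 1 UMIs. In the named neurons outside the granule lineage, pooled, the ratio was 0.532 (0.243 to 1.18). By class it was 0.409 (0.0987 to 1.61) in Purkinje cell-like nuclei, from 6 and 5 UMIs. In GABAergic interneuron-like nuclei it was 0.433 (0.134 to 1.37), from 8 and 7 UMIs, and CN-like nuclei had 0 and 4 UMIs. The part of free RNA in these low levels was not tested.

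Bergmann glia-like nuclei did not share the lower Cxcr4 level. They had 86 UMIs in 243 nuclei, 79.3 CPM (95% interval 63.4 to 97.9) in control and 179 UMIs in 571 nuclei, 81.8 CPM (95% interval 70.3 to 94.7) in the cKO-labelled library, with a ratio of 1.03 (0.794 to 1.35), which lies at the 55.3 percentile of all genes compared in this class. Its interval did not overlap that of GNP-like nuclei, but the difference between the classes has no replicate and was not tested. The shares with a UMI were 27.6% (22.1 to 33.6) and 26.3% (22.7 to 30.1). Cluster 18 had 9 and 25 Cxcr4 UMIs, 34.9 and 40.8 CPM, with a ratio of 1.17 (0.529 to 2.85). In oligodendrocyte lineage-like nuclei the counts were 2 and 6, with a ratio of 1.06 (0.190 to 10.8). Microglia-like nuclei had 0 Cxcr4 UMIs in both libraries, which in the cKO-labelled library allows up to 6.89 CPM.

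Cxcl12 was lower in the granule neurons of the cKO-labelled library. GN-like nuclei had 479 UMIs in 1156 nuclei, 81.4 CPM (95% interval 74.3 to 89.1) in control and 322 UMIs in 1480 nuclei, 50.5 CPM (95% interval 45.1 to 56.3) in the cKO-labelled library, with a ratio of 0.620 (0.537 to 0.716). Of the genes compared, 4.0% were at least 1.5-fold lower and 3.24% at least 1.5-fold higher in this class, and 2.59% had a lower ratio than Cxcl12. The share of GN-like nuclei with a UMI was 30.1% (27.5 to 32.8) and 17.8% (15.9 to 19.8), and 8.96% and 4.67% when thinned. The summed granule neuron markers were 9553 and 9806 CPM in these nuclei, with 6 of 10 lower and 4 higher. The 10 GNP markers summed to 249 and 159.7 CPM, with 9 lower. Bergmann glia markers summed to 329 and 427 CPM (5 of 8 higher), parenchymal astrocyte markers to 82.8 and 111 CPM (5 of 8 higher), GABAergic progenitor markers to 15.5 and 22.4 CPM (4 of 8 higher) and GABAergic interneuron markers to 58.8 and 75.8 CPM (6 of 8 higher). The part of these shifts in the Cxcl12 ratio was not tested.

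Within the GN-like class, the intervals of the Cxcl12 ratio excluded 1 in clusters 4 and 0 but not in cluster 8. The ratio was 0.592 (0.471 to 0.740) in cluster 4, from 216 and 127 UMIs, 0.612 (0.5 to 0.749) in cluster 0, from 237 and 171 UMIs, and 0.609 (0.393 to 0.935) in the unnamed cluster 3. In cluster 8, the Cntn2-high cluster, it was 1.11 (0.610 to 2.01) from 26 and 24 UMIs, and its interval overlaps those of clusters 4 and 0. In GNP-like nuclei 25 and 2 UMIs gave a ratio of 0.380 (0.0436 to 1.52), which holds 1.

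Low Cxcl12 levels in Purkinje cell-like and GABAergic interneuron-like nuclei also differed between the libraries. Purkinje cell-like nuclei had 8.15 CPM (24 UMIs) and 2.50 CPM (15 UMIs), a ratio of 0.307 (0.150 to 0.609), and GABAergic interneuron-like nuclei 7.72 CPM (22 UMIs) and 3.30 CPM (19 UMIs), a ratio of 0.427 (0.219 to 0.827). The Purkinje cell-like ratio was 0.519 at a clustering resolution of 0.4 and 0.514 at 1.2. CN-like nuclei had 2.23 CPM (2 UMIs) and 3.07 CPM (8 UMIs), a ratio of 1.37 (0.274 to 13.3). The low-depth clusters had 68.1 CPM (47 UMIs) and 34.5 CPM (16 UMIs), a ratio of 0.507 (0.268 to 0.910). Bergmann glia-like nuclei had 7.38 CPM (8 UMIs) and 6.86 CPM (15 UMIs), a ratio of 0.930 (0.370 to 2.53). With the Purkinje cell-like level of each library subtracted, an alternative chosen after seeing the data, the GN-like ratio of Cxcl12 was 0.655 and the GNP-like ratio of Cxcr4 0.353. Purkinje cell-like nuclei were deeper, with medians of 9282.5 and 7929 UMIs against 4668.5 and 3997 in GN-like nuclei. Their CPM may therefore understate free RNA in shallower nuclei, so the subtraction does not settle its size. The part of free RNA in these ratios was not tested further.

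Ackr3 was higher in the Bergmann glia of the cKO-labelled library, by less than 1.5-fold. The class had 193 UMIs in 243 nuclei, 178 CPM (95% interval 154 to 205) in control and 501 UMIs in 571 nuclei, 229 CPM (95% interval 209 to 250.0) in the cKO-labelled library, with a ratio of 1.29 (1.09 to 1.53). In this class 4.25% of genes were at least 1.5-fold lower and 5.29% at least 1.5-fold higher, and Ackr3 lay at the 86.9 percentile of ratios. The share of nuclei with a UMI was 49.8% (43.3 to 56.3) and 48.2% (44.0 to 52.3), at medians of 4307 and 3675 UMIs, and 16% and 19.5% when thinned, with overlapping intervals (11.7 to 21.3 and 16.3 to 23.0). The ratio of thinned UMIs was 1.35, and its interval holds 1. The 8 Bergmann glia markers summed to 10150.2 and 9885 CPM in the same nuclei.

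The unnamed clusters 18 and 19 had ratios over 1 from few UMIs. In at least 10% of its nuclei, cluster 18 detected 5 of 8 Bergmann glia, 5 of 8 parenchymal astrocyte and 3 of 8 GABAergic progenitor markers. Cluster 18 had 34.9 CPM (9 UMIs) and 84.9 CPM (52 UMIs), a ratio of 2.44 (1.19 to 5.62), and cluster 19 14.6 CPM (3 UMIs) and 37.2 CPM (17 UMIs), a ratio of 2.55 (0.737 to 13.6), whose interval holds 1. The low-depth clusters had 7.24 CPM (5 UMIs) and 8.63 CPM (4 UMIs), a ratio of 1.19 (0.236 to 5.54). Oligodendrocyte lineage-like and microglia-like nuclei had ratios of 1.06 (0.322 to 4.52) and 0.993 (0.163 to 10.4). Cluster 17, named GABAergic interneuron-like, had 0 and 6 UMIs, and the 6 lay in 3 nuclei, 4 of them in 1 nucleus. The cluster also carried dividing markers, which summed to 1688 CPM over both libraries, with Mki67 at 308 CPM. The sum was 3015 CPM in GNP-like cluster 13. In the granule lineage Ackr3 had 13 and 10 UMIs, a ratio of 0.896 (0.352 to 2.21). Within Bergmann glia-like nuclei of control, Ackr3 was 158 CPM in nuclei with Mki67 and 184 CPM without, and in the cKO-labelled library 223 and 230.3 CPM. Cxcr4 in the same sets was 77.2 and 79.9 CPM in control and 58.9 and 87.1 CPM in the cKO-labelled library, and in each library and for each gene the interval with Mki67 overlapped that without.

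**Figure D4:**
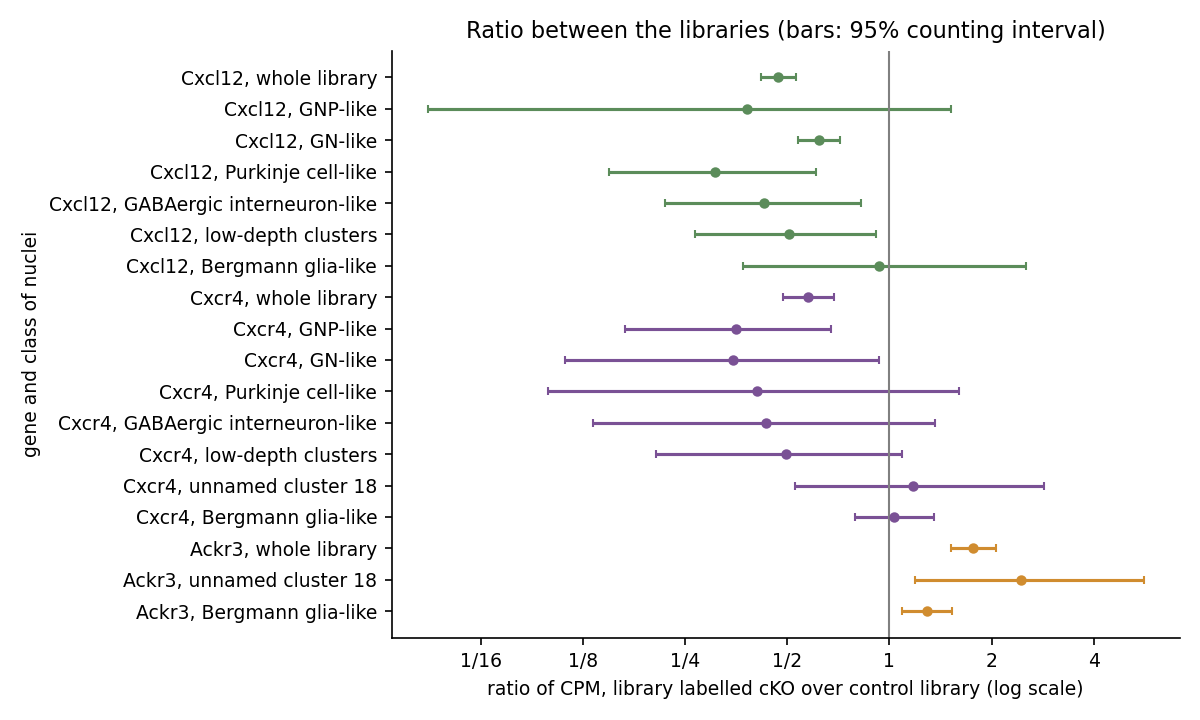
Points give the ratio of CPM between the cKO-labelled library and control (x axis, log scale) for each gene and class (y axis), bars are 95% counting intervals and the grey line marks 1. Cxcr4 was at 0.354 in GNP-like and 1.03 in Bergmann glia-like nuclei, Cxcl12 at 0.620 in GN-like nuclei and Ackr3 at 1.29 in Bergmann glia-like nuclei.

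Both receptors occurred in the same Bergmann glia. In control, 44 of 243 Bergmann glia-like nuclei had UMIs of both Cxcr4 and Ackr3, 23 of Cxcr4 alone, 77 of Ackr3 alone and 99 of neither. In the cKO-labelled library these were 78, 72, 197 and 224 of 571. Cxcr4 was seen in 36.4% (27.8 to 45.6) of control nuclei with Ackr3 and 18.9% (12.3 to 26.9) without, at medians of 4511 and 4078.5 UMIs. In the cKO-labelled library the shares were 28.4% (23.1 to 34.1) and 24.3% (19.5 to 29.6). Thinned to 1000 UMIs, the control shares were 5.13% (2 of 39 nuclei) and 6.86% (14 of 204). Those of the cKO-labelled library were 11.7% (13 of 111) and 8.28% (38 of 459). The intervals of the thinned shares overlapped in each library and the shares were in opposite order in the libraries, so no relation is read from them.

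Ligand and receptor met in few granule lineage nuclei. In control, 11 of 1670 nuclei had UMIs of both Cxcl12 and Cxcr4, 360 of Cxcl12 alone and 113 of Cxcr4 alone, and in the cKO-labelled library 2, 263 and 13 of 1595. Within GNP-like nuclei of control, Cxcl12 was seen in 4.63% of nuclei with Cxcr4 and 4.43% of those without, within the interval of the Cxcl12 share in microglia-like nuclei. Within GN-like nuclei of control the shares were 37.5% (6 of 16 nuclei, 15.2 to 64.6) with Cxcr4 and 30.0% (27.4 to 32.8) without. In the cKO-labelled library they were 33.3% (2 of 6 nuclei, 4.33 to 77.7) and 17.7% (15.8 to 19.8). The intervals overlapped in each library, so no relation within cells is read from these counts.

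Whole-library values combine class sizes with levels. Cxcl12 was 33.8 CPM (31.3 to 36.4) in control and 15.9 CPM (14.5 to 17.4) in the cKO-labelled library, with a ratio of 0.471 (0.419 to 0.530). Cxcr4 was 14.7 CPM (13.1 to 16.4) and 8.49 CPM (7.48 to 9.59), a ratio of 0.578 (0.487 to 0.685), and Ackr3 11.9 CPM (10.4 to 13.4) and 21.0 CPM (19.4 to 22.7), a ratio of 1.77 (1.52 to 2.06). Of all genes with at least 50 UMIs, 5.81% were at least 1.5-fold lower and 5.26% at least 1.5-fold higher. With the class levels of control and the class sizes of the cKO-labelled library, over 16 classes and clusters weighted by their UMIs, the ratio would be 0.768 for Cxcl12, 0.699 for Cxcr4 and 1.32 for Ackr3. With the class sizes of control and the levels of the cKO-labelled library, it would be 0.602, 0.591 and 1.32. Both components therefore lay on the same side of 1 as the whole-library ratio for each gene.

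Genes with the most similar pattern over the 25 clusters, both libraries summed, were listed by Pearson's r of log2(CPM + 5) among 13639 genes with at least 200 UMIs. For Ackr3 they were Wwtr1 (0.91), a coactivator of the Hippo pathway, Slc1a3 (0.90), the glial glutamate transporter, Gm29266 (0.89), Cmya5 (0.89) and Notch1 (0.88), a receptor of neural precursors and glia. For Cxcr4 they were Pwwp3b (0.88), Gli1 (0.88), a target and effector of Shh signalling, Psmg2 (0.87), Lmcd1 (0.87) and Ccp110 (0.86), a centriolar protein. For Cxcl12 the values were lower: Efnb1 (0.77), an ephrin, Snapc1 (0.76), Sept11 (0.76), Iah1 (0.75) and Baiap2 (0.75). Without the low-depth clusters the values were 0.71 to 0.92 over all 15. The clusters come from the same libraries and differ in depth, so these are descriptions.

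Other genes of the pathway were counted against the same background, from lists of 52 signalling genes and 42 other chemokines and chemokine receptors, where Cxcl11, Cxcl14 and Cxcr3 belong to both lists and Cxcl11 was not in the feature list. In whole libraries 44 and 15 had at least 50 UMIs. Of the signalling genes, 0 were at least 1.5-fold lower and 4 higher, with a median log2 ratio of -0.04 against -0.02 over all genes. Of the chemokine genes, 0 were lower and 3 higher, with a median of 0.06. Over all genes compared, 5.81% were lower and 5.26% higher. The highest ratios were those of Ccl24 (0.732 and 1.99 CPM, ratio 2.72, interval 1.52 to 5.15), a chemokine with 51 of its 75 UMIs in microglia-like nuclei, Cx3cl1 (0.976 and 2.29 CPM, ratio 2.34, interval 1.41 to 4.07), the neuronal ligand of the microglial receptor Cx3cr1, and Penk (2.10 and 4.31 CPM, ratio 2.05, interval 1.44 to 2.97), the precursor of opioid peptides that Ackr3 can bind. CN-like nuclei held 80 of 173 Penk UMIs and 38 of 89 Cx3cl1 UMIs. Microglia-like nuclei numbered 53 in control and 152 in the cKO-labelled library, and CN-like nuclei 76 and 265. The part of class sizes in these ratios was not tested. The lowest ratio was that of Hmgb1 (163 and 116 CPM, ratio 0.715, interval 0.682 to 0.750), a chromatin protein that can form a complex with Cxcl12. Next lowest were Ccl5 (3.07 and 2.39 CPM, ratio 0.776, interval 0.546 to 1.11) and Dock1 (80.4 and 63.9 CPM, ratio 0.796, interval 0.745 to 0.850), a Rac activator.

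In GNP-like nuclei, 4 of 29 signalling genes were at least 1.5-fold lower and 3 higher, beside 16.2% of all genes lower and 9.25% higher, and of 3 chemokine genes 1 was lower and 1 higher. The lowest ratios were those of the chemokine receptor gene Ccr9 (31.2 and 9.27 CPM, ratio 0.297, interval 0.0785 to 0.798), Gnai1 (29.3 and 11.6 CPM, ratio 0.396, interval 0.124 to 0.976), an inhibitory G protein subunit of the kind Cxcr4 couples to, and Mif (48.8 and 20.9 CPM, ratio 0.428, interval 0.190 to 0.845), a cytokine that also binds Cxcr4. Dock1, the only listed gene with at least 500 UMIs past 1.5-fold here, was at 291 and 148 CPM, ratio 0.509, interval 0.387 to 0.660. The highest were those of Grk3 (87.4 and 220.3 CPM, ratio 2.52, interval 1.94 to 3.25), a receptor kinase that turns off Cxcr4 signalling, Mmp14 (41.5 and 81.2 CPM, ratio 1.96, interval 1.28 to 2.93), a membrane protease, and Elmo1 (142 and 239 CPM, ratio 1.68, interval 1.33 to 2.11), the partner of Dock1. Over both libraries Grk3 was 696 CPM in Bergmann glia-like, 244 in GN-like and 110.5 CPM in GNP-like nuclei. Counts of Ccr9 were spread over classes, at 27.4 CPM in GNP-like, 13.6 in GN-like, 32.4 in Bergmann glia-like and 24.5 in Purkinje cell-like nuclei. Those of the chemokine receptor gene Cxcr6 were 16.9, 4.98, 25.7 and 7.05 CPM in the same classes. Genes that overlap these listed genes were not searched for.

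In GN-like nuclei, 0 of 34 signalling genes were past 1.5-fold in either direction and 1 of 7 chemokine genes was lower, beside 4.0% of all genes lower and 3.24% higher. It was Cxcr6 (6.80 and 3.29 CPM, ratio 0.484, interval 0.271 to 0.841), a chemokine receptor. Next lowest were Gnai2 (13.4 and 9.25 CPM, ratio 0.689, interval 0.483 to 0.978) and Arrb2 (13.1 and 10.2 CPM, ratio 0.779, interval 0.551 to 1.10), the arrestin known to bind both Cxcl12 receptors, and the highest were Mmp14 (4.93 and 6.74 CPM, ratio 1.37, interval 0.835 to 2.27), the adrenomedullin receptor gene Calcrl (3.91 and 5.18 CPM, ratio 1.32, interval 0.754 to 2.36) and Ackr1 (19.9 and 25.7 CPM, ratio 1.29, interval 1.01 to 1.65). In Bergmann glia-like nuclei 2 of 30 signalling genes were lower and 3 higher, and 0 and 1 of 5 chemokine genes, beside 4.25% of all genes lower and 5.29% higher. The lowest were Gng2 (105 and 59.4 CPM, ratio 0.565, interval 0.436 to 0.733), a G protein subunit, Rhoa (66.4 and 38.9 CPM, ratio 0.585, interval 0.423 to 0.813), a small GTPase of cell migration, and Ackr4 (34.1 and 25.1 CPM, ratio 0.737, interval 0.477 to 1.15), and the highest Gnai1 (9.22 and 18.3 CPM, ratio 1.98, interval 0.975 to 4.45), Cxcr6 (15.7 and 30.6 CPM, ratio 1.95, interval 1.13 to 3.55) and Grk6 (14.8 and 26.5 CPM, ratio 1.80, interval 1.02 to 3.35). Elmo1, with over 500 UMIs, was at 241 and 375 CPM, ratio 1.56, interval 1.36 to 1.80. The median log2 ratio of the signalling genes was -0.14, -0.07 and -0.04 in the GNP-like, GN-like and Bergmann glia-like classes, against -0.05, -0.01 and 0.01 over all genes compared.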

How the data were processed

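Single-nucleus RNA-seq of P1 cerebellum gave 2 libraries, prepared by the authors with 10x Genomics 3′ chemistry. The authors aligned and counted reads with Cell Ranger 7.0.1 on mm10, per the submitters' processing notes, and the deposited values are raw counts of UMIs per gene and nucleus, not normalised. Whether intronic reads were counted is not given in the sources used here, and free RNA was not corrected. Total counts per library were 22325208 and 33726533 UMIs before filtering.

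Nuclei over 25% mitochondrial UMIs (1 control, 5 cKO) and the top 0.8% of Scrublet scores per 1000 barcodes (scanpy 1.11.5; 189 and 386) were removed. Clusters came from Seurat 5.3.0 in R 4.3.3 after integration (3000 variable features, 30 dimensions, clustering on 20 at resolution 0.8). The members, listed pathway genes, Tox3 and Atoh1 (95 genes) were kept out of the clustering features. A cluster was named where at least 3 markers of a list reached 2-fold of the median over other clusters and were seen in at least 10% of nuclei, unless depth was low, leading genes of another class outnumbered its own, most of another list passed too, or no own marker was among its 20 leading genes. The members and lists were chosen with earlier results of these data known, and the naming rule was set after the clusters were seen, so class names are rebuilt. The values of 1 named class are not reported here.

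CPM is UMIs of a gene per 1000000 UMIs of the same nuclei. Intervals are exact 95% Poisson (sums), Clopper-Pearson (shares) and conditional binomial (ratios). Only the ratio intervals were tested, on simulated Poisson counts for whole libraries and GNP-like nuclei, which hold no spread beyond counting. A count of 0 was bounded by 3 counts. Named pathway genes are the 3 lowest and 3 highest ratios of each comparison among listed genes with at least 50 UMIs, and those with at least 500 UMIs past 1.5-fold. With 1 library per group no test was run. Python 3.11.15, numpy 2.4.6, scipy 1.17.1 and pandas 2.3.3 were used, with gene positions from GENCODE and promoters from RefSeq.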

Additional observations from a re-analysis of the deposited data

How the results depend on the processing

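Of 157 ratios recomputed under alternatives (doublet calling, clustering resolution, no integration, listed genes allowed in clustering, scaling, at least 1000 genes, thinning to 1000 UMIs, marker gates on single nuclei, and 3 chosen after seeing the data), 149 stayed within the main counting interval and none whose interval excluded 1 changed direction. The interval came to hold 1 for Cxcl12 in the granule lineage with marker gates (0.776 to 1.12), for Ackr3 in Bergmann glia-like nuclei when thinned (1.35, 0.953 to 1.94), for Cxcr4 in GN-like nuclei when thinned (0.518) or with at least 1000 genes (0.368), and for Cxcl12 in Purkinje cell-like nuclei when thinned (0.407). The ranges for Cxcr4 were 0.255 to 0.365 in GNP-like, 0.0899 to 0.153 in all granule lineage and 1.00 to 1.33 in Bergmann glia-like nuclei. They were for Cxcl12 0.535 to 0.738 in GN-like nuclei and for Ackr3 1.28 to 1.43 in Bergmann glia-like nuclei and 1.58 to 1.93 in whole libraries. Of the ratios that moved further, Cxcl12 with marker gates was 0.738 in GN-like and 0.933 in granule lineage nuclei. Thinned, Cxcl12 was 0.535 in GN-like, 0.159 in GABAergic interneuron-like and 0 in GNP-like nuclei, Ackr3 0.348 in the granule lineage and Cxcr4 0 in GABAergic interneuron-like nuclei, where it was 0.124 without integration. Thinning leaves few UMIs, and the other causes were not tested. Several alternatives reuse the same UMIs, such as 134 and 10 for Cxcr4 in GNP-like nuclei at resolutions 0.4 and 1.2. Wide main intervals, such as 0.352 to 2.21 for Ackr3 in the granule lineage, are also hard to leave. The count of 149 therefore does not measure the spread between libraries. No paired analysis was possible because each group is 1 library and the groups share 1 replicate number only. The precision of Cxcr4 in GNP-like nuclei of the cKO-labelled library is limited by its 10 UMIs in 115 nuclei.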
